A study of Mus musculus with 11 samples.

Results

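The type I interferon response genes described here were 37 genes named by symbol, and all 37 were found among the 55486 genes of the count table. They were measured in eosinophils sorted from blood of FVB/N mice that carried metastatic disease derived from mammary tumours. In the CIS+IT group (7 libraries) the animals had received cisplatin, a drug that crosslinks DNA, together with antibodies against PD1 and CTLA4, which block inhibitory receptors of T cells. The Control Ab group (4 libraries) had received control antibody, and both groups were sampled 21 days into treatment. The combination was given as a whole, so the drug and the antibodies cannot be told apart in these data. Live leukocytes (CD45+) were gated as CD11b+ and F4/80+, lacking CD3, with little Ly6g and strong side scatter, and their RNA was made into Smart-seq2 libraries, which cover whole transcripts and carry no molecular identifiers. The labels number replicates without saying that each is a separate animal, so p-values measure the spread between these libraries.

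Type I interferons are secreted when cells sense foreign or misplaced nucleic acid, and they act on neighbouring cells through the receptor chains IFNAR1 and IFNAR2. The receptor's kinases JAK1 and TYK2 set off a complex that holds STAT2 and IRF9 and binds a DNA element, the interferon-stimulated response element, near the start of target genes. The targets encode proteins that bind or degrade viral RNA, block viral entry and release, and raise or restrain the response itself. Circulating leukocytes, granulocytes among them, carry part of this programme without infection.

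The response element has a core of GAAA followed, after any 2 bases, by GAAA again. RefSeq promoter windows of the GRCm38.p6 build (250 bases before to 50 bases after an annotated start) were at hand for 27 of the 37 members. The core, on either strand, was found in at least 1 window of 16 of these 27 members (59.3%) and in 3.99% of all 27025 genes with a window. The windows below belong to members on which the results turn, are written 5′ to 3′ along the gene, and carry each match in capitals, with overlapping matches running together. Isg15 holds 3 overlapping matches, its first base lying at -78 from the start, and the neighbouring copies Oas1a and Oas1g hold the same 16-letter stretch of 2 matches close to the start.
Isg15 (chr4:156200769-156201068, minus strand): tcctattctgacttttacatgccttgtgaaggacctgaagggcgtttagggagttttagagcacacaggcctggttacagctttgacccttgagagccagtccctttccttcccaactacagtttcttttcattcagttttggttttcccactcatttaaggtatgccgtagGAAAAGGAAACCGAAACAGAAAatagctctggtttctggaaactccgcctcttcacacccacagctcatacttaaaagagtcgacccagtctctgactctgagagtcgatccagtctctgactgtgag
Oas1a (chr5:120907476-120907775, minus strand): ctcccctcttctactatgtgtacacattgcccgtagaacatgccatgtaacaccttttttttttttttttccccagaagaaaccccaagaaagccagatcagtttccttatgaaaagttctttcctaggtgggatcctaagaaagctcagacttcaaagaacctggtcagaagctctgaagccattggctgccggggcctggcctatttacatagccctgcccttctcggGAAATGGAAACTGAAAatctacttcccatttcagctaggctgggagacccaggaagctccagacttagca
Oas1g (chr5:120887564-120887863, minus strand): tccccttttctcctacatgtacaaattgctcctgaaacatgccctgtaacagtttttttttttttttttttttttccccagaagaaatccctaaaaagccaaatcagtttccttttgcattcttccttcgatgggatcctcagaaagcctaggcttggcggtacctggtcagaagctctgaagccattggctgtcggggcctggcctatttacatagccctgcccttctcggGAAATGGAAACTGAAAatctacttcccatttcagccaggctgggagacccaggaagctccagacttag
Rsad2 (chr12:26456403-26456702, minus strand): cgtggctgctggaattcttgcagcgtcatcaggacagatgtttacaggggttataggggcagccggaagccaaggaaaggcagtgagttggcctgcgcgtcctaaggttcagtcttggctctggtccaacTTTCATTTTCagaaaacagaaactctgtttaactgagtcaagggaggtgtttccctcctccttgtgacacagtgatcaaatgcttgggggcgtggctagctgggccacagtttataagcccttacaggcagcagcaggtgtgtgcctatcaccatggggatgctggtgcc
Trim30a (chr7:104465144-104465443, minus strand): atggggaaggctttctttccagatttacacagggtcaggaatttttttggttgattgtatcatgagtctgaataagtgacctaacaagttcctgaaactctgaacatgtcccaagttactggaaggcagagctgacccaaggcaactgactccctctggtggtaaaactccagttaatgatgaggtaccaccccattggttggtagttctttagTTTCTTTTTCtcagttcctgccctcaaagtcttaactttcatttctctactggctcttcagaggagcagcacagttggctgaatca
Isg20 (chr7:78913174-78913473, plus strand): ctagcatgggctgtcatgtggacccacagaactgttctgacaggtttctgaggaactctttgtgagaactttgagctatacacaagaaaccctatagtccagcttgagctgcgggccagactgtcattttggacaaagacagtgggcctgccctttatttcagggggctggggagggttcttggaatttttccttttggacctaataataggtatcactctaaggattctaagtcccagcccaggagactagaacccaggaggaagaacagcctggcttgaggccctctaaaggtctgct
Rsad2 holds 1 match, on the other strand, and Trim30a holds 1 match in each of its 2 windows, of which the upstream-most start is shown. None of the 3 windows of Isg20 holds these letters, which says nothing about the factor. Among the other members with a window, no match was found for Irf7, Irf9, Ifit2, Cmpk2, Herc6, Ifi35, Ifi44, Oasl1, Oasl2 and Xaf1. Mx1, Mx2, Oas2, Usp18, Dhx58, Zbp1, Ly6e, Rtp4, Ifi27l2a and Parp14 had no entry.

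**Figure D1:**
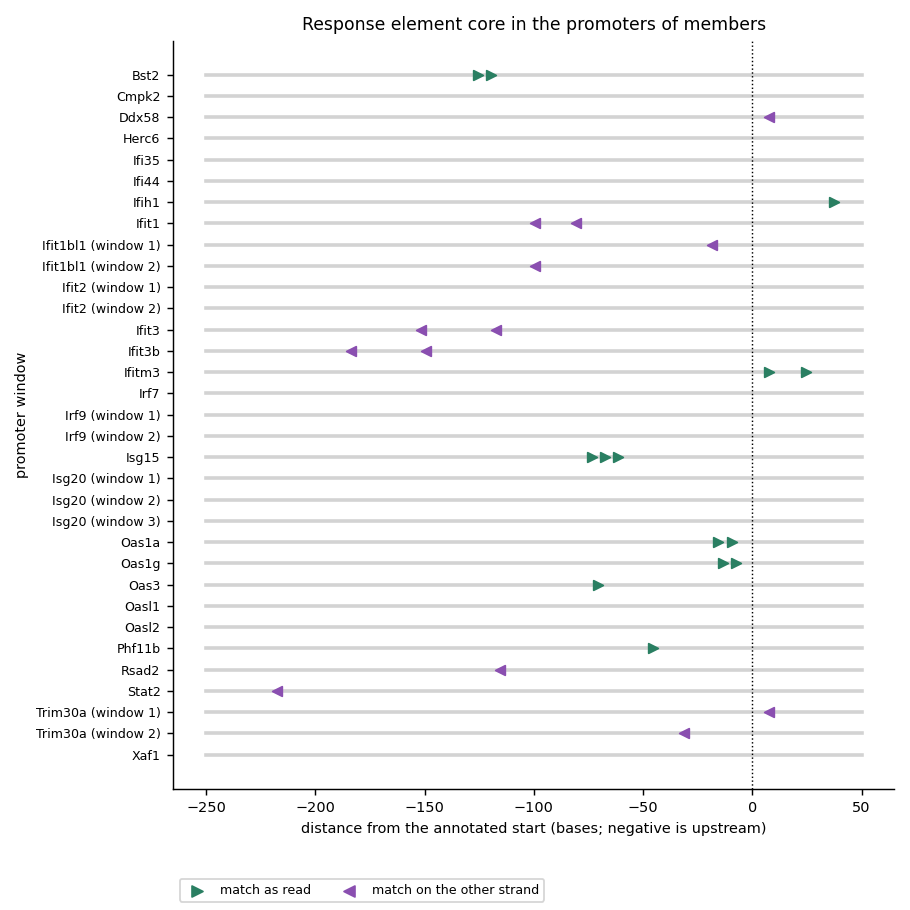
Matches to the response element core (GAAA, any 2 bases, GAAA; arrowheads at the centre of each match, pointing right as read along the gene and left on the other strand) in the 300-base promoter windows of 27 members, by distance from the annotated start in bases. 16 of the 27 members hold a match, and Isg20 and Irf7 are among those without.

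Libraries held 5356118 to 8016658 counts in the CIS+IT group and 3733156 to 6721060 in the Control Ab group. Control Ab 3 and Control Ab 4 stood apart from all others. Haemoglobin genes took 28.2% and 20.1% of their counts, against 4.42% at most elsewhere. Only 10775 and 11263 genes had a count in them, while every other library reached 12639. Eosinophil markers (12 listed, all detected and 11 in every library) summed to 3409 to 11150 CPM in CIS+IT and 6906 to 9826 CPM in Control Ab libraries. CPM is counts per 1e+06 after scaling by the TMM factors of edgeR. Epx was at 0 in CIS+IT 3. Control Ab 3 had the lowest Siglecf (243 CPM), Il5ra (22.8 CPM), Adgre1 (718 CPM) and Gata1 (142 CPM) of all libraries. With this scaling it also had the highest Prg2 (2290 CPM), Epx, Ear1, Ear2 and Ear6. Neutrophil markers (10 listed, all detected and 4 in every library) summed to 4585 to 13850 CPM in CIS+IT and 5263 to 15820 CPM in Control Ab libraries. That sum exceeded the eosinophil sum in all libraries but CIS+IT 4 and Control Ab 1. Sums of different genes do not give shares of cells, and the part of neutrophils in the members' levels was not tested. The TMM factors of Control Ab 3 and 4 were 0.671 and 0.703, against 0.979 to 1.21 elsewhere, so scaling raised every level in them relative to plain library totals. Values on plain library totals are given for some comparisons only. The order of CIS+IT 6 and Control Ab 3 turned on that scale for Irf7 (246 and 157 CPM), Ifit2 (63.1 and 45.0 CPM) and Ifit3 (18.7 and 13.1 CPM). The sample identifiers carry the digits 19 in all CIS+IT and 20 in all Control Ab libraries, so whatever these digits mark and the treatment cannot be told apart. The letters after these digits were VIS in CIS+IT 2 to 7, and KDV in CIS+IT 1 and all Control Ab libraries. What the letters mark is unstated and nearly coincides with the treatment too. In bulk libraries, fewer cells of a type and less RNA per cell cannot be told apart either.

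No member passed the test of a difference between the groups, set against the spread between libraries. In edgeR's quasi-likelihood test with Benjamini-Hochberg adjustment over 11389 genes, 0 of the 34 members tested were higher and 0 lower in CIS+IT at an adjusted p of 0.05, against 0% of all genes in either direction (smallest adjusted p of a member 0.626). DESeq2 and limma-voom also called 0 members, while DESeq2 called 0.466% of all genes higher and 0.171% lower. At an unadjusted p under 0.05, 4 members (11.8%) were higher in CIS+IT, namely Ly6e, Oas1g, Trim30a and Oas2, against 3.70% of all genes. Of these, Oas1g had 0 counts in all controls, so it passed the expression filter through CIS+IT libraries alone and could only lie above 0. In the other direction 1 member (2.94%), Isg20, was lower, against 3.13% of all genes. On plain library totals 5 members were higher and 0 lower at this p, against 6.69% of all genes in both directions together. With TMM scaling 0 members were lower without Control Ab 3 or without Control Ab 4, against 7.33% and 6.91% of all genes in both directions together. The log2 fold change, CIS+IT minus Control Ab, was above 0 for 23 of 34 tested members and for 51.8% of all tested genes, with a median of 0.36 for the members and 0.03 for all genes. These counts leave out Ifit3b, Mx2 and Ifi44, which fell below the expression filter. Over all 37 members the mean CPM was higher in CIS+IT for 26 and lower for 11.

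The number of members above 0 depended on single libraries. Without CIS+IT 6 it was 15 of 32 tested members that lay above 0, with a median of -0.11, against 52.1% of all genes. Without Control Ab 3 it was 28 of 34, with a median of 1.37, against 53.1% of all genes. Without both Control Ab 3 and Control Ab 4, which leaves 2 control libraries, 34 of 36 tested members lay above 0 with a median of 2.05, against 55.1% of all genes, and 0 passed the test (smallest adjusted p 0.0874, Ly6e, edgeR). That median was 1.98 with the 6 members at 0 in both remaining controls, which could only lie above 0, set to their lower bound. Control Ab 3 and 4 had the highest summed levels of members among the controls (6376 and 3448 CPM, against 783 and 642 CPM in Control Ab 1 and 2). Their removal thus raises the members' changes by construction. With all libraries 5 of 34 members had an unadjusted p under 0.05 in either direction, against 6.82% of all genes. Without CIS+IT 2 or CIS+IT 6 they became 2 of 32, against 5.785% and 5.794% of all genes. They became 3 of 31 without CIS+IT 1 (5.76% of all genes) and 3 of 34 without Control Ab 4 (6.91%). Members numbered 6 of 34 without CIS+IT 7 (6.14% of all genes), Control Ab 1 (11.3%) or Control Ab 3 (7.33%). Without both Control Ab 3 and 4 they were 7 of 36, against 8.57% of all genes.

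**Figure D2:**
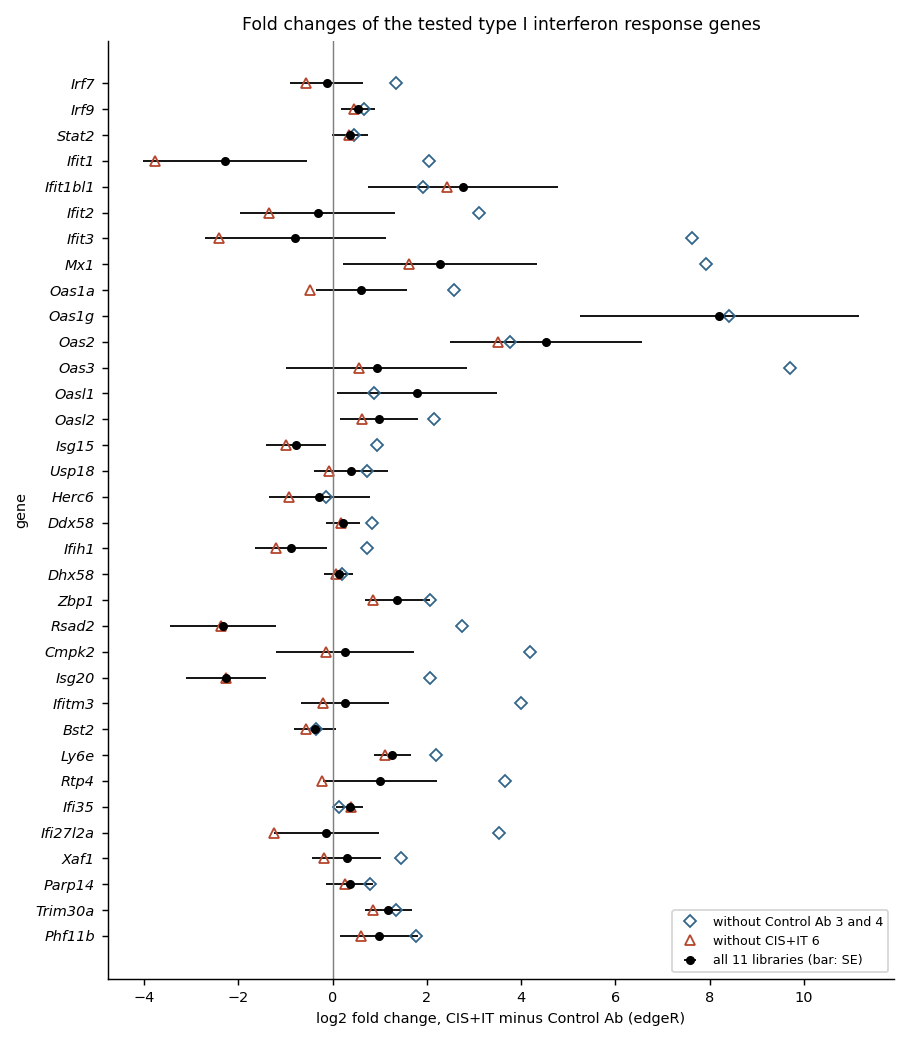
Log2 fold change (CIS+IT minus Control Ab) of the 34 tested members with all 11 libraries (black, bars are SE), without Control Ab 3 and 4 (blue diamonds) and without CIS+IT 6 (red triangles). Rsad2 and Isg20 lie left of 0 with all libraries and right of 0 without Control Ab 3 and 4, and the fitted values far to the right (Oas1g throughout, and Mx1, Ifit3 and Oas3 without Control Ab 3 and 4) belong to genes with 0 counts in all controls of that fit, where the size depends on the prior count.

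The members were spread unevenly over the libraries. CIS+IT 6 had the highest level of its group for 25 of 37 members and CIS+IT 1 for 6, and CIS+IT 6 was the only library in which all 37 members were detected. Within the Control Ab group, Control Ab 3 was highest for 23 of the 34 members with any control count. The 37 members together took 0.479% of the counts of CIS+IT 6 (95% Wilson interval 0.473 to 0.484), 0.131% to 0.244% in the other CIS+IT libraries, and 0.0919%, 0.0701%, 0.426% (0.42 to 0.433) and 0.242% in Control Ab 1 to 4. These intervals cover counting error only. In Control Ab 3 and Control Ab 4, Rsad2 and Isg20 alone made up 61.0% and 60.5% of that sum, against 7.59% to 25.0% in the CIS+IT libraries and 12.4% and 2.71% in Control Ab 1 and 2. Without these genes the summed level was 1145 to 3967 CPM in the CIS+IT libraries, and 686.5, 624.7, 2484 and 1361 CPM in Control Ab 1 to 4.

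Monocyte markers were highest in the same libraries. The summed level of the 12 markers, all detected and 9 of them in every library, was 2222 to 17020 CPM in CIS+IT and 920 to 19790 CPM in Control Ab libraries, and the highest libraries of each group were CIS+IT 6 and Control Ab 3. The mean of 9 of the 12 was higher in CIS+IT. Lyz2, the lysozyme of myeloid cells, stood at 10600 CPM in CIS+IT 6 and 14700 CPM in Control Ab 3, against 830.4 and 319 CPM in Control Ab 1 and 2. On plain library totals CIS+IT 6 was the higher, at 11810 CPM against 9830 CPM in Control Ab 3. Ace and Cx3cr1 of patrolling monocytes were at 3.17 and 6.22 CPM in Control Ab 1 and both at 0 in Control Ab 2. Other listed markers were present in Control Ab 1 and 2. Csf1r was at 561 and 440 CPM there, within the CIS+IT range of 364 to 1105 CPM. Ccr2 was at 103 and 38.9 CPM, and Treml4 at 66.1 and 17.0 CPM. CIS+IT 1, the library with the second highest sum of members in its group, held 5363 CPM of monocyte markers, 2599 CPM of it from Lyz2. That sum was below those of CIS+IT 3, 4 and 5, while Csf1r, the receptor for colony-stimulating factor of the lineage, was highest of all libraries there (1105 CPM) and Ly6c2 highest of the group (166 CPM). The plasmacytoid dendritic cell markers (8 listed, all detected in some library and 2 in every library) summed to 35.6 to 124 CPM in CIS+IT and 27.9 to 127 CPM in Control Ab libraries. Control Ab 3 had the highest sum, with Tcf4 at 71.3 CPM and Ccr9 at 21.6 CPM, and the defining receptor Siglech was at 0 in CIS+IT 2 and in Control Ab 1, 2 and 3.

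Markers of resident macrophages and B cells were mostly higher in CIS+IT. The mean of 8 of 8 macrophage markers, all detected in some library and 0 in every library, was higher there, with a summed level of 7.78 to 1122 CPM in CIS+IT and 3.82 to 16.7 CPM in Control Ab libraries. Timd4, Cd163 and Marco were at 0 in all controls. The complement gene C1qb (adjusted p = 0.00553), C1qc (0.0114) and Timd4 (0.00304) passed the test in DESeq2, and in edgeR the adjusted p of each was 0.626. The mean of 9 of 10 B cell markers, all detected and 7 in every library, was higher in CIS+IT, with a summed level of 1398 to 5874 CPM in CIS+IT and 813 to 2817 CPM in Control Ab libraries. CIS+IT 3 and 4 led in both lists, and CIS+IT 1, with many high members, held the lowest sum of both lists in its group. The part of other cells in the members' levels was not tested.

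**Figure D3:**
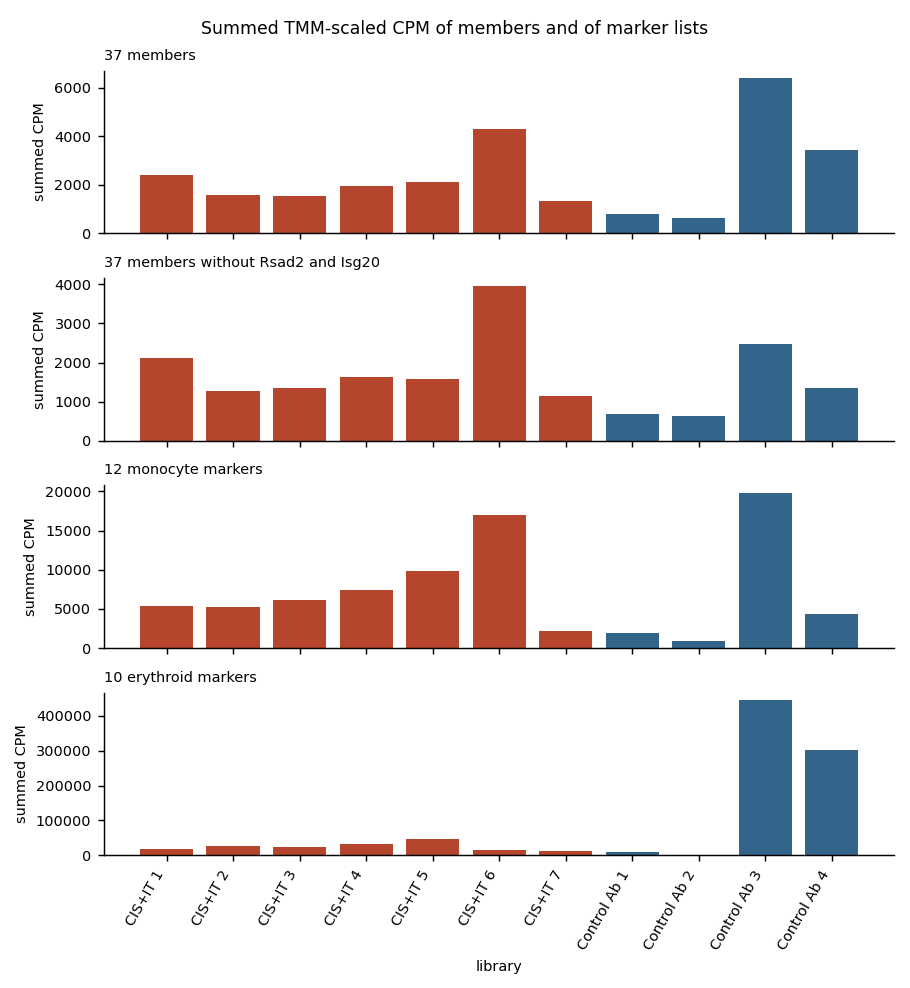
Summed TMM-scaled CPM per library (red CIS+IT, blue Control Ab) of the 37 members, of the members without Rsad2 and Isg20, of 12 monocyte markers and of 10 erythroid markers. CIS+IT 6 and Control Ab 3 are the highest of their groups in the first 3 panels, and erythroid markers reach 444200 and 302400 CPM in Control Ab 3 and 4, against 47040 CPM at most in the CIS+IT libraries.

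Per kilobase of exon, the most abundant members over all libraries were Ifitm3 (355 CPM per kb), Ifi27l2a (162), Isg20 (142), Rsad2 (112), Ly6e (111) and Ifi35 (57.8). The least abundant were Herc6 (0.641), Ifit3b (0.234), Mx2 (0.22) and Ifi44 (0.0706). Places in this order rest on the control libraries for some genes. Isg20 had 59.8 CPM per kb in CIS+IT and 286 in Control Ab, and Rsad2 had 45.5 in CIS+IT and 228 in Control Ab. In the CIS+IT group both were below Ly6e (140.5 CPM per kb) and Ifi35 (62.9). Ifit3b, Mx2 and Ifi44 fell below the expression filter.

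**Figure D4:**
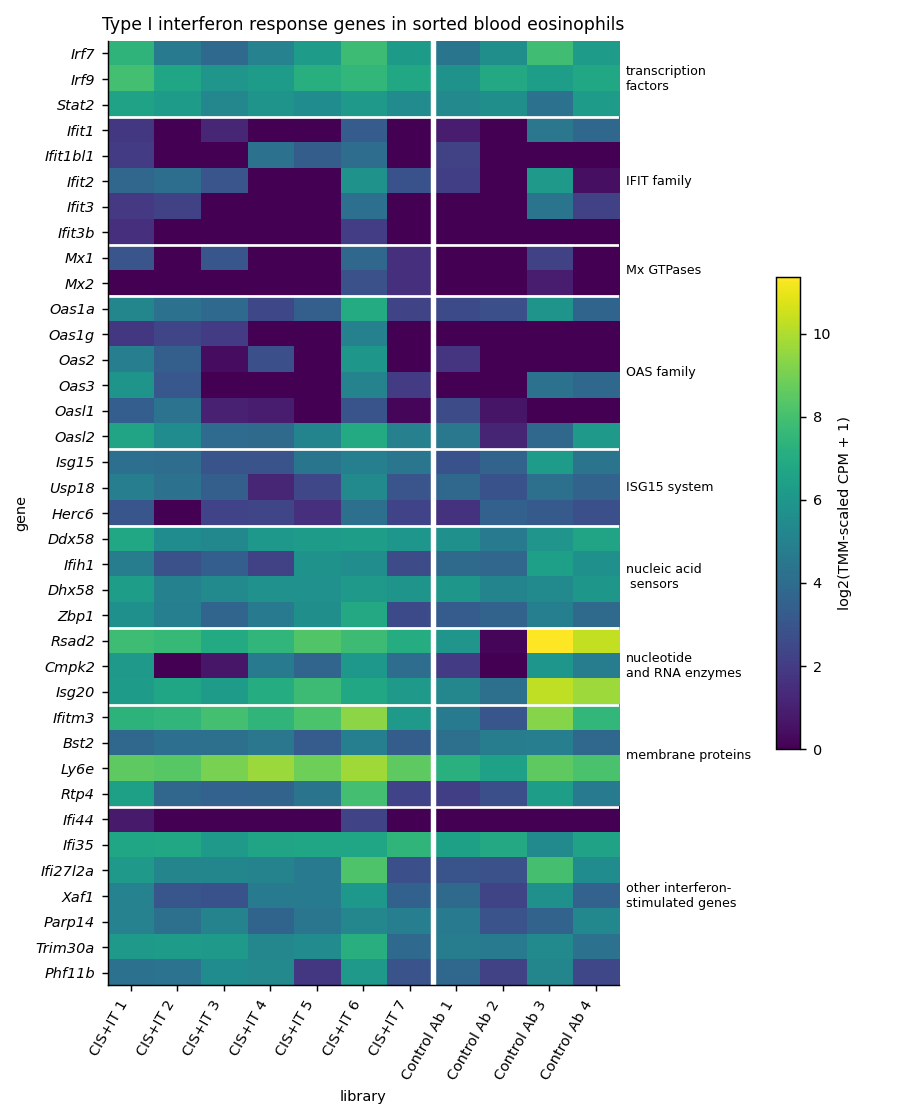
Level of each of the 37 members, as log2(TMM-scaled CPM + 1), in the 7 CIS+IT libraries (left of the white line) and the 4 Control Ab libraries, with members grouped by role. The columns of CIS+IT 6 and Control Ab 3 are the brightest of their groups for 25 and 23 members, and Rsad2 and Isg20 are brightest in Control Ab 3 and 4.

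Among the signalling members, Irf9 and Stat2, the DNA-binding and transactivating parts of the interferon-activated complex, were detected in every library. Irf9 (chr14:55603571-55610030) ran from 59.6 to 246 CPM with a median of 112 CPM in CIS+IT libraries, against 54.8, 116, 82.9 and 108 CPM in Control Ab 1 to 4. The groups overlapped, and only CIS+IT 1, 5 and 6 lay above all controls (log2 fold change 0.54 ± 0.37 SE, adjusted p = 0.855, edgeR). Stat2 averaged 60.1 ± 20.1 CPM in CIS+IT (SD, n = 7) and 46.2 ± 24.6 CPM in Control Ab (SD, n = 4). Irf7, the factor that amplifies interferon production and is itself an interferon target, ran from 13.8 to 221 CPM with a median of 71.7 CPM in CIS+IT, against 20.4, 49.4, 234 and 73.4 CPM in Control Ab 1 to 4. Its highest values were those of CIS+IT 6, CIS+IT 1 and Control Ab 3, and its log2 fold change of -0.13 was 0.91 without Control Ab 3.

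The IFIT family, tetratricopeptide proteins that bind viral RNA and are encoded side by side on chromosome 19, was at or near 0 in many libraries. Ifit2 was detected in 5 of 7 CIS+IT libraries, from 0 to 56.6 CPM with a median of 6.92 CPM, against 3.3, 0, 67.3 and 0.363 CPM in Control Ab 1 to 4. Ifit3 ran from 0 to 16.8 CPM in CIS+IT, with counts in CIS+IT 1, 2 and 6, against 0, 0, 19.6 and 3.63 CPM in Control Ab 1 to 4. Both genes were highest in CIS+IT 6 and in Control Ab 3, and the groups overlapped throughout. Ifit1 averaged 1.85 ± 3.32 CPM in CIS+IT and 9.09 ± 10.6 CPM in Control Ab, and its relative Ifit1bl1 averaged 6.59 ± 7.8 and 0.888 ± 1.78 CPM in CIS+IT and Control Ab (SD, n = 7 and 4). Ifit3b, a close copy of Ifit3, was detected in CIS+IT 1 and 6 and in no control, at 0.737 CPM on average in CIS+IT, at least 4.96-fold higher than a floor set at 3 counts over all controls. Reads of such copies may have been split between them.

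The OAS family, enzymes that make the oligoadenylates which activate RNase L and their catalytically silent relatives, had fitted changes above 0 for all 6 members with the 11 libraries, and 0 of 6 passed the test. For Oas1g, at 0 in all controls, no other direction was possible. Oas2 (chr5:120730333-120749853) was detected in 5 of 7 CIS+IT libraries, at 27.8, 9.79, 0.294, 5.78, 0, 64.5 and 0 CPM in CIS+IT 1 to 7, against 2.28 CPM in Control Ab 1 and 0 in the other 3 controls. Its log2 fold change was 4.52 ± 2.03 (SE; unadjusted p = 0.0424, adjusted p = 0.708, edgeR), and the groups overlapped at the low end. Oas1g, a near copy of Oas1a, had 2.59, 4.26, 2.94 and 30.5 CPM in CIS+IT 1, 2, 3 and 6, 0 in the other CIS+IT libraries and 0 in all controls. The mean of 5.75 CPM in CIS+IT was at least 38.7-fold higher than that floor (unadjusted p = 0.0177, adjusted p = 0.626, edgeR), and 1 library, CIS+IT 6, held most of it.

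Oas1a ran from 3.98 to 127 CPM with a median of 14.0 CPM in CIS+IT, against 4.82, 5.8, 58.5 and 11.6 CPM in Control Ab 1 to 4, with CIS+IT 6 and Control Ab 3 highest. Without CIS+IT 6 its log2 fold change of 0.61 became -0.48, so the sign rested on that library. Oasl2 ran from 14.3 to 122 CPM with a median of 33.9 CPM in CIS+IT, against 22.2, 1.27, 12.8 and 68.3 CPM in Control Ab 1 to 4. Oas3 averaged 14.4 ± 22.4 CPM in CIS+IT and 7.68 ± 9.06 CPM in Control Ab, and Oasl1, which in mice restrains translation of Irf7, averaged 5.35 ± 7.16 and 1.47 ± 2.58 CPM in CIS+IT and Control Ab (SD, n = 7 and 4). The Mx genes, dynamin-like GTPases against viral nucleocapsids, were scarce. Mx1 was detected in 4 of 7 CIS+IT libraries at up to 12.9 CPM and in Control Ab 3 at 3.61 CPM, and Mx2 in CIS+IT 6 (6.03 CPM), CIS+IT 7 (1.92 CPM) and Control Ab 3 (0.801 CPM).

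Isg15, the ubiquitin-like protein that is attached to targets during the response, had low counts (46 to 192 per library). It ran from 6.61 to 28.6 CPM with a median of 16.7 CPM in CIS+IT, against 6.21, 11.5, 76.9 and 19.6 CPM in Control Ab 1 to 4. Control Ab 3 lay far above every other library, and the log2 fold change was -0.78 ± 0.63 (SE; adjusted p = 0.893 in edgeR) with it and 0.46 without it. Usp18, the protease that removes Isg15 and damps the receptor, ran from 1.3 to 40.7 CPM with a median of 9.86 CPM in CIS+IT, against 12.8, 6.37, 17.2 and 11.3 CPM in Control Ab 1 to 4. Herc6, the ligase that attaches Isg15 in mice, averaged 5.52 ± 5.77 CPM in CIS+IT and 6.71 ± 3.59 CPM in Control Ab (SD, n = 7 and 4).

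The RNA sensors were detected in every library. Ddx58, which encodes RIG-I, ran from 38.4 to 110 CPM with a median of 65.2 CPM in CIS+IT, against 51.1, 25.9, 59.3 and 97.8 CPM in Control Ab 1 to 4. Dhx58, its relative without signalling domains, ran from 30.8 to 80.5 CPM with a median of 53.6 CPM in CIS+IT, against 64.4, 33.8, 42.1 and 62.9 CPM in Control Ab 1 to 4. The groups covered nearly the same range in both, with log2 fold changes of 0.22 ± 0.36 and 0.13 ± 0.31 (SE). Ifih1, the sensor of long double-stranded RNA, varied more, with 21.7 ± 21.2 CPM in CIS+IT and 40.3 ± 33.9 CPM in Control Ab. Zbp1, which senses Z-form nucleic acid, averaged 40.7 ± 36.6 CPM in CIS+IT and 15.8 ± 8.97 CPM in Control Ab (SD, n = 7 and 4; log2 fold change 1.38 ± 0.70 SE, adjusted p = 0.749, edgeR).

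Rsad2 and Isg20 differed widely within the control group. Rsad2 (viperin, chr12:26442746-26456452) makes a chain-terminating nucleotide that stops viral polymerases, and it ran from 123 to 309 CPM with a median of 194 CPM in CIS+IT, against 59.7, 0.142, 2634 and 1267 CPM in Control Ab 1 to 4. The CIS+IT libraries lay together, between a low and a high set of controls, and Control Ab 2 held 1 count of the gene. Isg20 (chr7:78913424-78920396), an exonuclease that degrades RNA, ran from 67.1 to 218 CPM with a median of 106 CPM in CIS+IT, against 37.2, 17.3, 1258 and 819 CPM in Control Ab 1 to 4. All 7 CIS+IT libraries were above Control Ab 1 and 2 and below Control Ab 3 and 4 for both genes. The log2 fold change was -2.33 ± 1.13 for Rsad2 (SE; adjusted p = 0.734, edgeR) and -2.26 ± 0.85 for Isg20 (SE; unadjusted p = 0.0208, adjusted p = 0.628, edgeR). Without Control Ab 3 and 4 they became 2.74 and 2.07 (adjusted p = 0.585 and 0.185, edgeR).

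The controls with high Rsad2 and Isg20 were also those with high erythroid markers (summed level of 10 markers, all detected and 7 in every library, 12840 to 47040 CPM in CIS+IT, and 9509, 1578, 444200 and 302400 CPM in Control Ab 1 to 4) and platelet markers (8 markers, all detected and 7 in every library, 775 to 2884 CPM in CIS+IT, and 268, 152, 10540 and 8732 CPM in Control Ab 1 to 4). T and NK cell markers (12 listed, all detected and 5 in every library) were also highest in these controls. Their sum was 28.3 to 72.2 CPM in CIS+IT, and 25.5, 38.1, 189 and 133 CPM in Control Ab 1 to 4. The summed neutrophil markers were highest there too, by less, at 4585 to 13850 CPM in CIS+IT, and 5263, 11070, 14410 and 15820 CPM in Control Ab 1 to 4. Single neutrophil markers did not all follow this sum. S100a8 and S100a9 were highest of all libraries in Control Ab 3 (1475 and 688 CPM) and lowest of all in Control Ab 4 (4.36 and 2.54 CPM). The part of all these cells in the levels of Rsad2 and Isg20 was not tested. Cmpk2, the mitochondrial nucleotide kinase encoded next to Rsad2 on chromosome 12, averaged 26.9 ± 29.0 CPM in CIS+IT and 22.7 ± 28.4 CPM in Control Ab (SD, n = 7 and 4) and was at 0 in CIS+IT 2 and Control Ab 2.

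Ly6e, a lipid-anchored surface protein that limits entry of some viruses, had the smallest p of all members. Ly6e (chr15:74955051-74959905) ran from 335 to 848 CPM with a median of 468 CPM in CIS+IT, against 147, 90.7, 378 and 271 CPM in Control Ab 1 to 4. Of the CIS+IT libraries, 3 (CIS+IT 1, 2 and 7) lay below Control Ab 3 and 7 of 7 above the other controls. The mean was 532 ± 210 CPM in CIS+IT (SD, n = 7) and 222 ± 128 CPM in Control Ab (SD, n = 4), with a log2 fold change of 1.26 ± 0.39 (SE; unadjusted p = 0.00611, adjusted p = 0.626, edgeR). On plain library totals the groups did not overlap, with 350 to 945 CPM in CIS+IT and 99.0 to 253 CPM in Control Ab, as was true of 0.948% of all tested genes in this direction and of no other member, while 0.114% of all genes and 0 members were lower without overlap. With TMM scaling no member had groups that did not overlap, against 0.509% of all genes higher and 0.430% lower. The level of Ly6e was highest in CIS+IT 6 (848 CPM), CIS+IT 4 (795 CPM) and CIS+IT 3 (536 CPM). The summed B cell markers were highest in the same 3 libraries (2970 CPM in CIS+IT 6, 5874 CPM in CIS+IT 4 and 4924 CPM in CIS+IT 3), and the macrophage markers in CIS+IT 3 (1122 CPM) and CIS+IT 4 (465 CPM). The controls did not follow this order. Control Ab 3, the control with most Ly6e (378 CPM), had the lowest B cell sum of all libraries (813 CPM). Control Ab 1, with 147 CPM of Ly6e, had the highest B cell sum of the controls (2817 CPM). The part of these cells in the level of Ly6e was not tested. The log2 fold change of Ly6e stayed between 1.01 and 1.69 with each library left out.

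Ifitm3, which hinders fusion of viruses with endosomes, ran from 70.1 to 678 CPM with a median of 176 CPM in CIS+IT, against 25.8, 7.22, 637 and 185 CPM in Control Ab 1 to 4. The spread of the controls was wider than the difference of the means (256 ± 198 CPM in CIS+IT, SD, n = 7, and 214 ± 293 CPM in Control Ab, SD, n = 4). With all libraries the log2 fold change was 0.26 ± 0.93 (SE; adjusted p = 0.978 in edgeR), and without Control Ab 3 it was 1.89. Bst2, the tetherin that holds budding virus at the cell surface, averaged 16.6 ± 7.04 CPM in CIS+IT and 21.4 ± 7.18 CPM in Control Ab. Rtp4, a chaperone of receptor transport, averaged 56.6 ± 89.9 CPM in CIS+IT and 28.5 ± 36.3 CPM in Control Ab (SD, n = 7 and 4), with 250 CPM in CIS+IT 6 and 81.3 CPM in Control Ab 3.

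**Figure D5:**
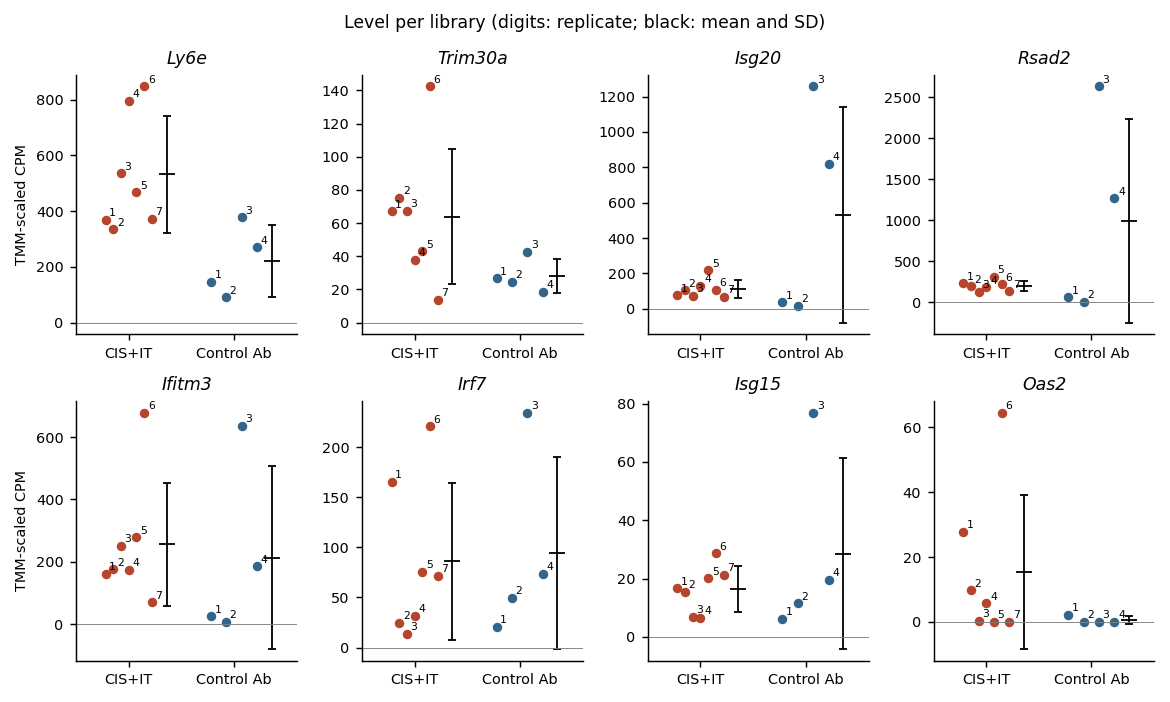
TMM-scaled CPM of 8 members in each library (points, digits give the replicate, CIS+IT left and Control Ab right), with the mean and SD of the group in black. Control Ab 3 and 4 hold the highest values of Isg20 and Rsad2, CIS+IT 6 and Control Ab 3 those of Ifitm3 and Irf7, and all CIS+IT values of Ly6e exceed those of Control Ab 1, 2 and 4.

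Of the remaining members, Trim30a, a ubiquitin ligase that restrains NF-kB signalling in mice, ran from 13.8 to 142 CPM with a median of 67.2 CPM in CIS+IT, against 26.8, 24.6, 42.9 and 18.5 CPM in Control Ab 1 to 4. CIS+IT 7 lay below all controls, CIS+IT 4 below Control Ab 3, and the other 5 above all controls (log2 fold change 1.18 ± 0.50 SE; unadjusted p = 0.0326, adjusted p = 0.676, edgeR). Ifi35, a leucine zipper protein, ran from 67.9 to 174 CPM with a median of 104 CPM in CIS+IT, against 87.4, 115, 42.9 and 92.7 CPM in Control Ab 1 to 4. Ifi27l2a, a small hydrophobic protein, ran from 5.76 to 303 CPM with a median of 34.6 CPM in CIS+IT, against 6.85, 6.08, 260.0 and 45.8 CPM in Control Ab 1 to 4. Both groups overlapped in either gene, and Ifi27l2a was highest in CIS+IT 6 and Control Ab 3.

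Xaf1, a partner of the apoptosis inhibitor XIAP, averaged 24.6 ± 20.7 CPM in CIS+IT and 20.1 ± 21.0 CPM in Control Ab. Parp14, a mono-ADP-ribosyltransferase, averaged 25.7 ± 9.29 CPM in CIS+IT and 20.1 ± 14.5 CPM in Control Ab, and Phf11b, a PHD finger protein, averaged 28.4 ± 23.3 CPM in CIS+IT and 14.4 ± 15.3 CPM in Control Ab (SD, n = 7 and 4). Ifi44 was detected in CIS+IT 1 and 6 and in no control, at 0.68 CPM on average in CIS+IT, at least 4.58-fold higher than the same floor. None of these 4 genes passed the test or, in the case of Ifi44, the expression filter.

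Genes that make, transmit and restrain the signal were read from lists of 93 further genes, of which 90 were in the table and 69 were tested. None passed the test in edgeR or DESeq2 (0 called), and at an unadjusted p under 0.05 in edgeR 7 (10.1%) were higher in CIS+IT and 1 (1.45%) lower, against 3.70% and 3.13% of all genes. The 7 include Ifi213, which was at 0 in all controls and could only lie above 0. The log2 fold change was above 0 for 46 of the 69 (66.7%), against 51.8% of all genes. Of the ligands, 12 of 13, Ifnb1 and the Ifna genes among them, had 0 counts in all libraries, and Ifnk alone had counts, in 4 CIS+IT libraries at 0.414 CPM on average. Transcripts of these ligands were thus not detectable at this depth.

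The receptor chains and the kinase Jak1 were detected in every library, and none passed the test. Ifnar2 averaged 74.8 ± 23.5 CPM in CIS+IT and 48.4 ± 10.9 CPM in Control Ab (unadjusted p = 0.0479, adjusted p = 0.727, edgeR). Ifnar1 averaged 106 ± 38.0 and 85.6 ± 34.4 CPM in CIS+IT and Control Ab, and Jak1 averaged 569 ± 149 and 470.0 ± 80.6 CPM.

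Among the restraints, Irf2, a repressor that competes for the response element, stood at 102 to 126 CPM in CIS+IT, against 95.8, 69.6, 41.7 and 83.2 CPM in Control Ab 1 to 4. It was the 1 pathway gene whose groups did not overlap with TMM scaling, against 0.509% of all genes (log2 fold change 0.61 ± 0.23 SE; unadjusted p = 0.0196, adjusted p = 0.628, edgeR), and they overlapped on plain library totals. On that scale the groups of 2 other pathway genes did not overlap, against 0.948% of all genes, namely Socs1, an inhibitor of JAK kinases, and Rnf213, a large ubiquitin ligase, both higher in CIS+IT and chosen after their values were seen. The phosphatases Ptpn6 (1113 ± 276 CPM in CIS+IT and 1048 ± 157 CPM in Control Ab) and Ptpn1 (689 ± 128 and 604 ± 45.2 CPM in CIS+IT and Control Ab) had the highest CPM among the restraints. Pias1, a SUMO ligase, averaged 129 ± 15.7 CPM in CIS+IT and 68.6 ± 59.2 CPM in Control Ab (SD, n = 7 and 4), with 10.02 CPM in Control Ab 3.

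Of 3 genes that work with Isg15, 2 had fitted changes above 0 and 0 were called. Ube2l6, its conjugating enzyme, ran from 559 to 1553 CPM in CIS+IT, against 1573, 970, 3808 and 3985 CPM in Control Ab 1 to 4, and was thus highest in the libraries with high erythroid markers (log2 fold change -1.14 ± 0.37 SE; unadjusted p = 0.00786, adjusted p = 0.626, edgeR). Uba7, the activating enzyme, averaged 134 ± 41.0 CPM in CIS+IT and 102 ± 17.3 CPM in Control Ab, and Trim25, the ubiquitin ligase of RIG-I, 47.2 ± 21.4 and 24.2 ± 12.2 CPM in CIS+IT and Control Ab.

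Genes that induce interferon showed no common direction, with 8 of 13 above 0. Tlr7, the endosomal RNA receptor, averaged 44.6 ± 44.6 CPM in CIS+IT and 18.9 ± 17.2 CPM in Control Ab, and Tbk1, the kinase that activates IRF3, 98.5 ± 29.9 and 123 ± 32.6 CPM in CIS+IT and Control Ab. Myd88 (239 ± 104 CPM in CIS+IT and 237 ± 61.0 CPM in Control Ab) and Irf5 (153 ± 80.8 and 177 ± 127 CPM in CIS+IT and Control Ab) had the highest CPM among them (SD, n = 7 and 4). Of 40 tested further interferon-stimulated genes, 25 (62.5%) lay above 0, against 51.8% of all genes, and 4 had an unadjusted p under 0.05, all higher in CIS+IT, against 3.70% of all genes. Samd9l, a restrictor of translation, averaged 242 ± 99.1 CPM in CIS+IT and 124 ± 17.6 CPM in Control Ab (adjusted p = 0.626, edgeR). Ifi213, a member of the Pyhin family, was detected in 5 CIS+IT libraries and no control, so its change could only lie above 0. The other 2, named after their values were seen, were Znfx1 (38.1 ± 11.1 CPM in CIS+IT and 9.5 ± 13.3 CPM in Control Ab) and Rnf213 (32.3 ± 11.1 and 14.5 ± 7.76 CPM in CIS+IT and Control Ab). By CPM not corrected for length, the highest were Lgals9 (299 ± 102 CPM in CIS+IT and 290 ± 88.8 CPM in Control Ab) and Sp100 (248 ± 71.9 and 247 ± 137 CPM in CIS+IT and Control Ab).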

How the data were processed

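The authors deposited raw counts per gene for 11 libraries. The tools named are SAMtools 1.15.1, HISAT2 2.10 and bcl2fastq 2.20.0.422, and the build is GRCm38, per the submitters' processing notes. The read counter, its strand setting and its annotation are unstated, and reads of gene copies and of the 9 members that share exon bases with another gene (Irf9, Irf7, Ifi35, Dhx58, Herc6, Usp18, Rtp4, Parp14 and Oasl1) may be split or shared. A row naming no gene held 0 counts and was left out. Groups follow the sample titles. Libraries were not duplicates (chi-square per gene 52.8 or more).

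Counts were tested in edgeR 4.0.16 (R 4.3.3, TMM, filterByExpr, robust quasi-likelihood, Benjamini-Hochberg over 11389 genes, threshold 0.05). SE is the log2 fold change over the root of F. Alternatives used DESeq2 1.42.0 and limma 3.58.1. Exon lengths and coordinates come from GENCODE M21 (GRCm38), in which 55226 of 55486 identifiers were found. Members and lists were chosen with earlier results of these data known. Values per library are given for members with an unadjusted p under 0.05, with groups that do not overlap, or among the 2 most abundant per kb of their role; of each pathway list, the 2 most abundant and the 2 with the smallest p are named.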

Additional observations from a re-analysis of the deposited data

Results flagged for a closer look

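Within each group, the highest or lowest library of each of the 34 members that passed the expression filter was set against the rest by Dixon's ratio on log2(CPM + 1), in 67 groups whose values were not all equal, of which 3 exceeded the 95% critical value. In each of the 3, the other controls were at 0, so that the ratio was 1 whatever the remaining value, and the flags carry no weight as a test. Ifit1bl1 stood at 3.55 CPM in Control Ab 1, Oas2 at 2.28 CPM in Control Ab 1 and Mx1 at 3.61 CPM in Control Ab 3, each with 0 counts in the other 3 controls. These are low counts in 1 library, and 0 of the 3 lay in the CIS+IT group.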

How the results depend on the processing

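No member was called under any alternative, and the log2 fold changes kept direction and side of the threshold in 338 of 367 comparisons with another setting and in 340 of 366 with 1 library left out. DESeq2 called 82 of all genes and 0 members. At an unadjusted p under 0.05 limma-voom left 2 members, against 6.86% of all genes, and the replicate block 4, against 2.89%, both with 0 lower. Without both Control Ab 3 and 4, the controls with the highest summed levels of members, the median of the members was 2.05 in place of 0.36. Log2 fold changes turned there to 1.35 (Irf7), 2.05 (Ifit1), 3.11 (Ifit2), 7.62 (Ifit3), 0.94 (Isg15), 0.74 (Ifih1), 2.74 (Rsad2), 2.07 (Isg20) and 3.53 (Ifi27l2a). With limma-voom and quality weights they turned to 0.59 (Irf7), 2.05 (Ifit2), 0.87 (Ifit3), 0.49 (Isg15), 3.08 (Rsad2), 0.16 (Isg20) and 1.90 (Ifi27l2a). On library totals, an alternative chosen after seeing the data, they turned to 0.35 (Irf7), 0.33 (Ifit2), 0.0213 (Herc6) and 0.53 (Ifi27l2a), and this scaling moved the median of all genes to 0.25. With the letters of the sample identifiers as a term, which leaves CIS+IT 1 against the controls, they turned to 0.81 (Irf7), 0.12 (Herc6) and -0.40 (Ifitm3). The cause of these turns was not tested.

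The groups share replicate numbers 1 to 4 only as names. Same-numbered libraries deviated together with correlations of -0.04, 0.02, -0.11 and -0.05, and among CIS+IT 1 to 4 the best partner had another number for every control. With the replicate block 0 genes were called, and log2 fold changes turned to 0.71 (Ifit2), -0.11 (Oas3), -0.19 (Usp18), -0.0094 (Dhx58), -0.21 (Cmpk2) and 0.73 (Ifi27l2a).

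With 1 library left out the median of the members ran from -0.11 to 1.37. Members whose sign turned ran from -0.16 to 1.55 (Cmpk2), -0.57 to 0.91 (Irf7), -1.25 to 1.97 (Ifi27l2a), -0.21 to 1.89 (Ifitm3), -0.18 to 1.35 (Xaf1), -0.043 to 1.86 (Oas3), -0.066 to 0.64 (Usp18), -0.48 to 2.099 (Oas1a), -0.23 to 2.47 (Rtp4), -0.92 to 0.030 (Herc6), -0.027 to 0.59 (Ddx58), -0.022 to 0.27 (Dhx58), -1.35 to 3.44 (Ifit2), -2.41 to 1.59 (Ifit3) and -1.11 to 0.46 (Isg15). Few counts limit Ifit, Mx and Oas genes, for which 1 library can set a group's mean.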

Other observations

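Neighbouring members did not always share their pattern over the libraries. Rsad2 and Cmpk2 lie next to each other on chromosome 12, yet CIS+IT 2 held 1226 counts of Rsad2 and 0 of Cmpk2, and CIS+IT 3 held 833 and 4, while CIS+IT 1 held 1850 and 561. In Control Ab 3 the counts were 6575 for Rsad2 and 153 for Cmpk2, and in Control Ab 1 they were 471 and 23. On chromosome 19, Ifit1bl1 had 153 counts in CIS+IT 4 and 64 in CIS+IT 5, libraries in which Ifit1, Ifit2, Ifit3 and Ifit3b had 0.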
